A study of Mus musculus with 8 samples.

Results

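The 30 genes described here are targets of the integrated stress response, together with the enzymes of serine, proline and one-carbon metabolism that the same response can raise. They were taken by symbol from the 52551 rows of each count file, and all 30 were found. The transcription factors of the response, CHOP among them, are not members. The livers came from male C57BL/6 mice aged 6 weeks. All 8 carried the PiZ transgene, from which hepatocytes make human alpha-1 antitrypsin in its Z form, a protein that misfolds in the endoplasmic reticulum. In 4 of them (PiZ) this was the only change the labels give, and in the other 4 (PiZ/Chop-/-) the gene Chop, also named Ddit3, was deleted as well, so what PiZ itself does cannot be read from this pair of groups. The sources used here do not give what drives the transgene, which part of Ddit3 was deleted or whether each library is its own mouse. P-values therefore measure only the spread between libraries, which may be technical.

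In the integrated stress response, kinases such as PERK phosphorylate the initiation factor eIF2, which slows most protein synthesis and favours translation of the transcription factor ATF4. ATF4 raises the gene of a second factor, CHOP, and both bind DNA as bZIP dimers, often at composite sites that join part of a C/EBP site to part of an ATF site. Known targets restore protein synthesis, take up and make amino acids, or feed serine-derived carbon into the mitochondrial folate cycle. The comparison asks which of these transcripts differ in a PiZ liver that lacks CHOP.

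Of the 30 members, 18 had enough reads to be tested and 12 did not. The 18 include genes that could pass this filter through 1 group alone, so they do not stand for all members. Nupr1 and Trib3 fell in PiZ/Chop-/- livers, no member rose, and the other 16 did not pass (edgeR, Benjamini-Hochberg adjusted p below 0.05 over 8669 genes). Of all genes tested, 1.03% passed in either direction and 0.692% fell. Library values of the genotypes were fully apart in 2 of the 18, again Nupr1 and Trib3, against 7.88% of all genes tested in either direction and 4.22% with the lower values in PiZ/Chop-/-. Of the 18 fold changes, 12 were below 0, against 50.2% of all genes tested, and the median was -0.27 against -0.0016 over all genes. A negative log2 fold change means a lower level in PiZ/Chop-/- than in PiZ. Levels are CPM (counts-per-million) on TMM-scaled library sizes, given for libraries 1 to 4 of a group in order. Reads come from the 3' ends of messages, so a CPM does not grow with gene length, and levels are compared here within a gene only.

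**Figure D1:**
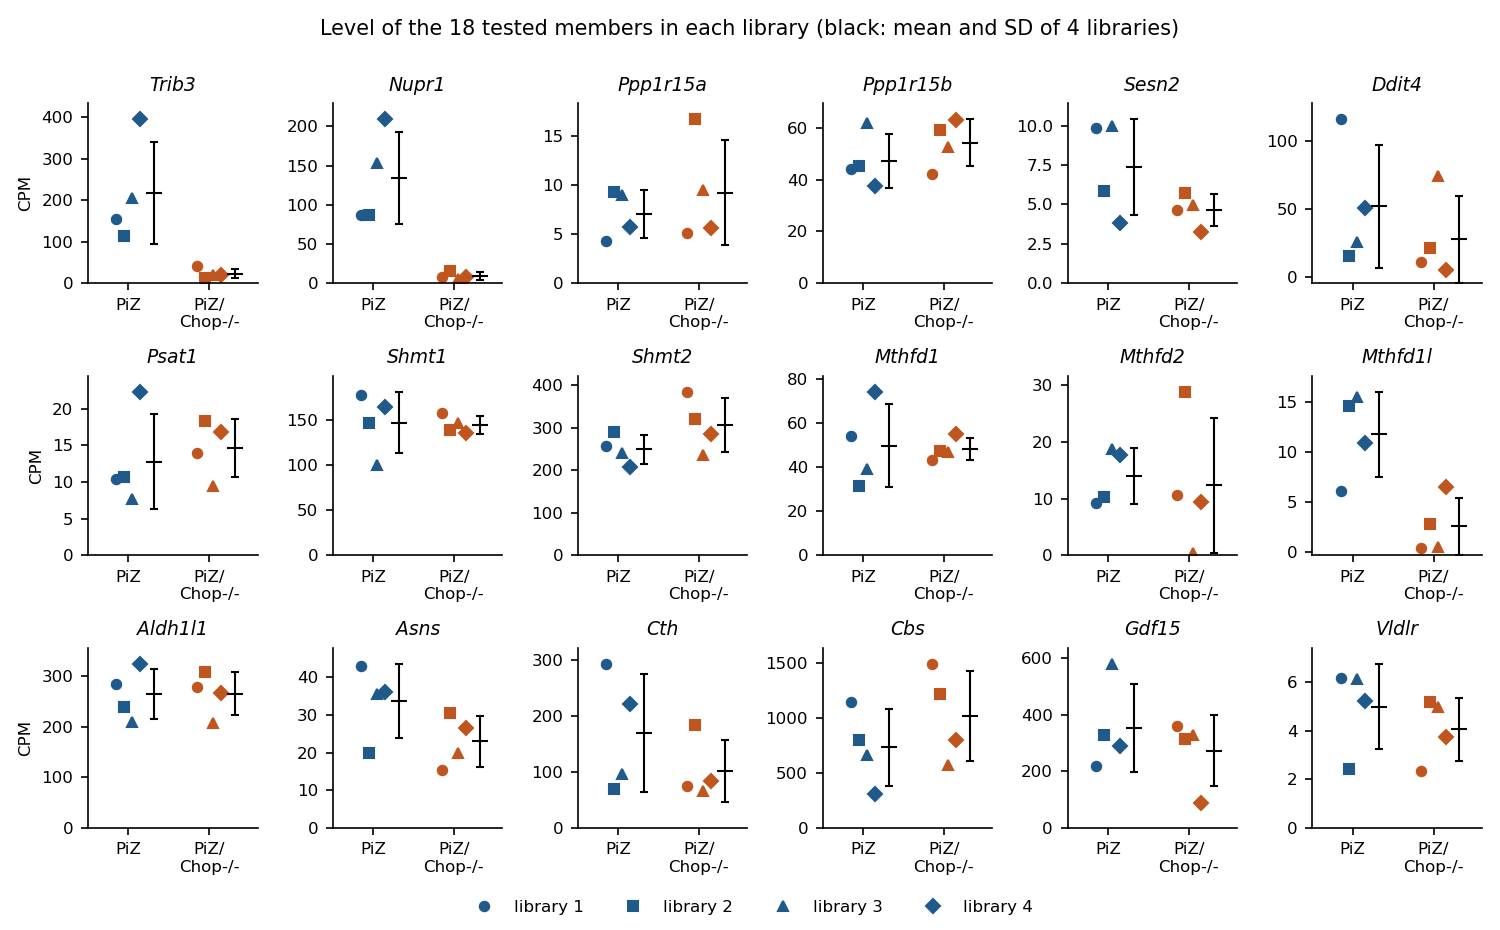
CPM (vertical axis, linear, a scale for each gene) of the 18 tested members in the 4 PiZ (blue) and 4 PiZ/Chop-/- (orange) libraries, with the marker shape giving the library number and the black bar the mean and SD. Trib3 and Nupr1 have every PiZ library above every PiZ/Chop-/- library, and the other 16 overlap between the groups.

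The library checks were as follows. Total counts ran from 1650260 to 3064385 per library, and Ddit3 stood at 85.4 to 191 CPM in PiZ and 1.72 to 4.19 CPM in PiZ/Chop-/-, which matches the labels of all 8. Summed hepatocyte markers ran from 92940 to 103500 CPM in PiZ and from 95130 to 101700 CPM in PiZ/Chop-/-. The PiZ transgene message, SERPINA1, was itself lower without CHOP, at 950.2 to 1845 CPM against 554.1 to 712.2 CPM (log2 fold change -1.23, adjusted p = 0.00873; 0.0575 without PiZ/Chop-/- library 3). Of 14 macrophage markers 13 had fold changes below 0, and their sum ran from 1163 to 1661 CPM in PiZ and 915.6 to 1080 CPM in PiZ/Chop-/-. Of 14 stellate cell markers 8 were tested and all 8 were below 0, with sums of 395.3 to 534.5 against 305.7 to 437.9 CPM. Of 14 endothelial markers 12 were above 0, with sums of 445.7 to 502.1 against 590.3 to 662.7 CPM. No marker of these 3 lists passed the test. The sums were 9.72 to 19.5 against 7.45 to 9.43 CPM for lymphocyte markers (0 of 14 tested), 351.2 to 832.4 against 341.4 to 1458 CPM for red cell markers (5 of 8 tested) and 11.4 to 35.5 against 5.11 to 86.8 CPM for neutrophil markers (2 of 9 tested, Elane at 0). In bulk liver, fewer cells of a type and less message per cell cannot be told apart, and the part of cell makeup and of transgene level in the members' differences was not tested.

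Short stretches of 8 members' promoters are shown first, because they carry the letters of the composite site and include both genes that fell. RefSeq promoters (GRCm38.p6, 250 bases before to 50 after each start, 300 in all) were in hand for 27 of the 30 members. The pattern TGATGNAAN, read on either strand, was found in 8 of these 27, against 3.95% of 32851 promoters. Its narrower form TGATGCAA, which overlaps it, was found in 5 of the 27 (Nupr1, Chac1, Pycr1, Fgf21 and Vldlr), against 0.895% of all. The members are counted as genes and the 32851 as single promoters, so the shares are not strictly alike. A gene with more than 1 promoter entry has more chances of a match. The members were also chosen as targets of a response whose factors often bind such sites. The higher shares among them are therefore no independent result of these data. Each line gives 30 bases on the gene's own strand, 5′ to 3′, with the match in capitals:
Nupr1: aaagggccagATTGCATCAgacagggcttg
Trib3: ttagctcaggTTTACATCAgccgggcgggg
Fgf21: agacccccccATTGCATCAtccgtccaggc
Chac1: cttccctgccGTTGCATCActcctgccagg
Asns: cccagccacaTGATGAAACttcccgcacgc
Pck2: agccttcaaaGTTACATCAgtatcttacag
Pycr1: gccctgtgtaTGATGCAATgcacaaggctc
Vldlr: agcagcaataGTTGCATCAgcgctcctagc
In Asns and Pycr1 the pattern reads along the gene, and in the other 6 on the opposite strand. These stretches lie at chr7:126625562-126625591 (Nupr1, minus strand), chr2:152344028-152344057 (Trib3, minus), chr7:45615611-45615640 (Fgf21, minus), chr2:119351038-119351067 (Chac1, plus), chr6:7693213-7693242 (Asns, minus), chr14:55540152-55540181 (Pck2, plus), chr11:120643832-120643861 (Pycr1, minus) and chr19:27216809-27216838 (Vldlr, plus). The match begins 111 bases before the RefSeq start in Nupr1, 140 in Fgf21, 194 in Chac1 and 23 in Asns. In Trib3 it begins at base 14 after the RefSeq start, outside the exons of GENCODE M21, while in Nupr1, Asns and Vldlr it falls inside an M21 exon. A match is a description of letters, not of binding. Of the 8 genes, 4 were tested and 2 fell, against 0.692% of all genes tested. A link between the pattern and the falls was not tested. No entry was in hand for Aldh1l2, Cth and Ppp1r15b.

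Nupr1 fell 15.3-fold, the steepest fall among the members. It encodes a small stress-induced nuclear protein and lies on chromosome 7 (126623249 to 126630861, minus strand, mm10). Its level was 86.7, 87.0, 153 and 209 CPM in the PiZ libraries and 7.43, 15.5, 4.96 and 7.45 CPM in the PiZ/Chop-/- libraries. The highest library without CHOP was thus far under the lowest PiZ library, and within PiZ libraries 3 and 4 stood above libraries 1 and 2. The means were 134 ± 58.9 and 8.84 ± 4.60 CPM (SD, n = 4 each). On the log2 scale the fall was -3.94 with an SE of 0.39 (95% interval -4.78 to -3.09, edgeR adjusted p = 0.000243), and all 4 PiZ/Chop-/- libraries shared it. Counts of 141, 179, 477 and 440 against 16, 27, 10 and 16 stand behind these levels.

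Trib3 fell 9.41-fold. It encodes a pseudokinase known to be induced by ATF4 and CHOP and to restrain AKT signalling and ATF4 itself, and it lies on chromosome 2 (152337422 to 152344032, minus strand). Its level was 154, 114, 206 and 394 CPM in PiZ and 40.0, 12.6, 18.9 and 20.0 CPM in PiZ/Chop-/-. The groups did not overlap, and PiZ library 4 was the highest of its group for Trib3 as it was for Nupr1. The means were 217 ± 124 and 22.9 ± 11.8 CPM (SD, n = 4 each), and the log2 fold change was -3.23 (SE 0.47, edgeR adjusted p = 0.0139). Trib3 no longer passed when library 3 of PiZ/Chop-/- was left out (-3.15, adjusted p = 0.0578) or its library 4 (-3.17, adjusted p = 0.0683), and over 18 alternative settings the adjusted p ran from 7.97e-21 to 0.0683. Within PiZ/Chop-/- the order of the libraries differed between the pair: library 1 was highest for Trib3 and library 2 was highest for Nupr1 and lowest for Trib3.

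Of the 7 stress regulators among the members 6 were tested, 2 fell and the other 4 did not pass (median of the 6: -0.78). Ppp1r15a, the stress-induced subunit of the phosphatase that reverses eIF2 phosphorylation (GADD34), is a textbook target of CHOP. It stood at 4.31, 9.23, 9.003 and 5.69 CPM in PiZ and at 5.11, 16.7, 9.43 and 5.59 CPM in PiZ/Chop-/-. The groups overlapped almost fully, and the log2 fold change was 0.33 (95% interval -0.56 to 1.22, adjusted p = 0.787), so a fall as large as that of Trib3 or Nupr1 lies outside the interval. Its constitutive counterpart Ppp1r15b stood at 37.5 to 61.7 CPM in PiZ and 42.3 to 62.9 CPM in PiZ/Chop-/- (0.19, interval -0.26 to 0.65). Sesn2, a stress-induced inhibitor of mTORC1, stood at 9.84, 5.83, 9.97 and 3.797 CPM and at 4.65, 5.75, 4.96 and 3.26 CPM (-0.67, interval -1.53 to 0.19, adjusted p = 0.512). Both of its groups reached down to between 3 and 4 CPM.

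Ddit4, another inhibitor of mTORC1, varied more within the groups than between them. Its level was 116, 16.0, 26.0 and 50.8 CPM in PiZ and 11.2, 21.3, 74.5 and 5.12 CPM in PiZ/Chop-/-, and the log2 fold change of -0.88 had an interval from -3.15 to 1.39 (adjusted p = 0.755). The value rested on single libraries: leaving out PiZ library 1 gave -0.14 and leaving out PiZ/Chop-/- library 3 gave -2.06. When PiZ libraries 1 and 4, those least like their group, were both left out, the sign turned (0.39). Chac1, which degrades glutathione and is a known CHOP and ATF4 target, was too low to be tested. It had 4, 2, 2 and 13 counts in PiZ and 20, 4, 6 and 11 counts in PiZ/Chop-/-. Summed counts over summed library totals came to 2.40 CPM in PiZ but 4.90 CPM in PiZ/Chop-/-, and the fit over unfiltered genes gave 1.01 on the log2 scale (SE 0.58, adjusted p = 0.549).

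**Figure D2:**
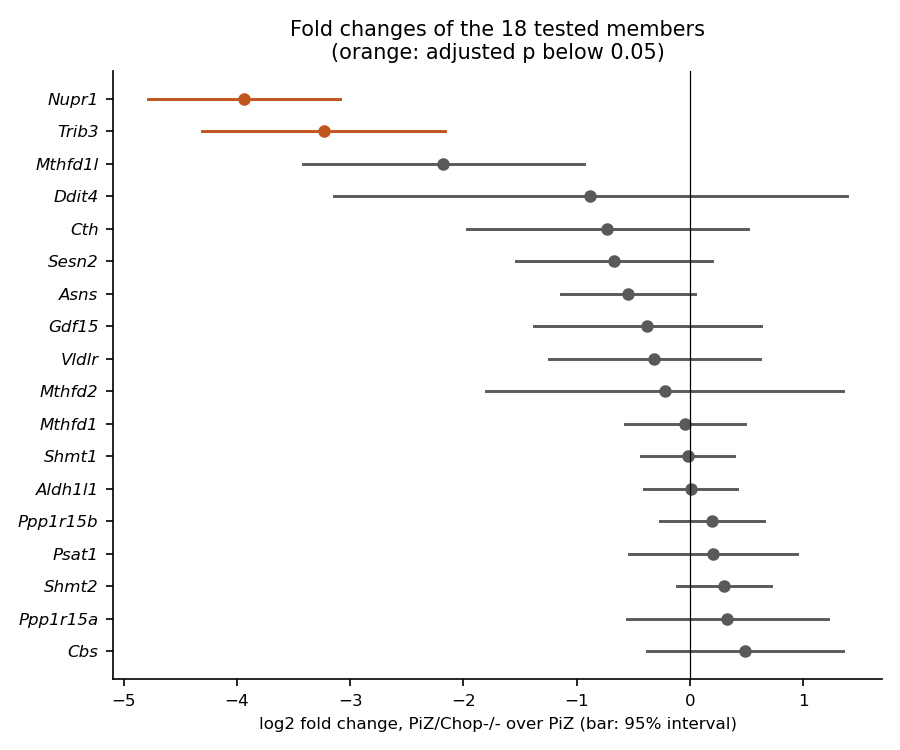
Log2 fold change of PiZ/Chop-/- over PiZ (horizontal axis) for the 18 tested members, with 95% intervals from the edgeR fit as bars. Nupr1 at -3.94 and Trib3 at -3.23 are the 2 that passed (orange), Mthfd1l at -2.18 is next, and the remaining 15 lie between -0.88 and 0.48 with intervals that include 0.

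Serine synthesis from glycolysis runs through Phgdh, Psat1 and Psph, and only Psat1, the middle step, had enough counts to be tested. Phgdh, the first and committed enzyme, had 0 counts in all 8 libraries, which at the pooled depth allows up to 0.175 CPM of counted reads (3 counts, counting error only). Since the authors' annotation and handling of multiply mapped reads are not given, little message and reads that were not counted cannot be told apart for Phgdh. Psat1, the aminotransferase, stood at 10.5, 10.7, 7.72 and 22.3 CPM in PiZ and at 13.9, 18.4, 9.43 and 16.8 CPM in PiZ/Chop-/-. The groups overlapped, with a log2 fold change of 0.20 (interval -0.54 to 0.94, adjusted p = 0.859). Psph, the phosphatase of the last step, had 21 counts over the PiZ libraries and 16 over the PiZ/Chop-/- libraries. By library these were 1, 6, 7 and 7 counts in PiZ and 4, 5, 2 and 5 in PiZ/Chop-/-.

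Of 8 one-carbon enzymes 6 were tested, none passed and 4 were below 0 (median -0.033). In the mitochondrial folate branch 1 enzyme stood apart from the rest without passing the test. Mthfd1l, the mitochondrial formate-tetrahydrofolate ligase that releases formate to the cytosol, stood at 6.15, 14.6, 15.4 and 10.9 CPM in PiZ and at 0.465, 2.87, 0.496 and 6.52 CPM in PiZ/Chop-/-. Only PiZ library 1 and PiZ/Chop-/- library 4 crossed, at 10 and 14 counts, while PiZ/Chop-/- libraries 1 and 3 had 1 count each. The means were 11.8 ± 4.23 and 2.59 ± 2.85 CPM (SD, n = 4 each), and the log2 fold change was -2.18 (SE 0.58, edgeR adjusted p = 0.103). It passed with DESeq2 (-2.19, adjusted p = 0.0428), when low counts were not filtered (-2.17, adjusted p = 0.000467) and without PiZ/Chop-/- library 4 (-3.25, adjusted p = 0.0242). Over all 18 alternatives its adjusted p ran from 0.000467 to 0.256.

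Mthfd2, the mitochondrial methylenetetrahydrofolate dehydrogenase and a well-known ATF4 target, varied widely within PiZ/Chop-/-. It stood at 9.23, 10.2, 18.6 and 17.6 CPM in PiZ and at 10.7, 28.7, 0.496 and 9.32 CPM in PiZ/Chop-/-. Library 2 of the PiZ/Chop-/- group was the highest of all 8 and library 3, with 1 count, the lowest. The log2 fold change was -0.22 (interval -1.80 to 1.35, adjusted p = 0.928), and it was 0.18 without PiZ/Chop-/- library 3 but -1.02 without library 2 of that group. Other members of this branch had few counts. Mthfd2l had 4 counts in PiZ (0, 0, 1 and 3) and 7 in PiZ/Chop-/- (5, 1, 1 and 0). Aldh1l2, the mitochondrial formyltetrahydrofolate dehydrogenase, had 2 in PiZ (1, 1, 0 and 0) and 2 in PiZ/Chop-/- (0, 2, 0 and 0). Shmt2, which splits serine in mitochondria, stood at 258, 291, 240 and 209 CPM in PiZ and at 385, 322, 236 and 285 CPM in PiZ/Chop-/- (0.30, interval -0.11 to 0.71, adjusted p = 0.542). Shmt2 lies 220.8 kb from Ddit3 on chromosome 10 (127517123 to 127522444).

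The cytosolic enzymes were level between the groups within narrow limits. Shmt1, the cytosolic serine hydroxymethyltransferase, ran from 99.7 to 177 CPM in PiZ and from 135.6 to 157 CPM in PiZ/Chop-/- (-0.022, interval -0.43 to 0.39). Mthfd1, the trifunctional cytosolic folate enzyme, ran from 31.6 to 74.0 and from 43.2 to 55.0 CPM (-0.045, interval -0.57 to 0.48). Aldh1l1, which oxidises formyltetrahydrofolate and is abundant in hepatocytes, ran from 209.6 to 323 and from 207.5 to 309 CPM (0.0058, interval -0.41 to 0.42). The signs of all 3 turned under some settings, so none has a direction here. Annotated neighbours overlap some members: Cct6a overlaps Psph with 1195 counts against 37, D10Wsu102e overlaps Aldh1l2 with 640 against 4, and Smcr8 overlaps Shmt1 with 180 against 2413. How reads in such overlaps were assigned is not given, so these counts are uncertain. For the counts as given, the 95% intervals of Shmt1 and Aldh1l1 include 0 and stay under 1.5-fold in either direction.

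Of 6 enzymes of amino acid and sulfur metabolism 3 were tested and none passed (median -0.55). Asns, asparagine synthetase, carries a classical ATF4 site and stood at 43.1, 19.9, 35.7 and 36.1 CPM in PiZ and 15.3, 30.5, 19.9 and 26.6 CPM in PiZ/Chop-/-. Of its PiZ libraries, 3 were above all libraries without CHOP and library 2 was not (log2 fold change -0.55, interval -1.14 to 0.044, adjusted p = 0.414). Cth, which releases cysteine from cystathionine, stood at 292, 69.0, 95.8 and 222 CPM and at 74.8, 184, 65.0 and 83.9 CPM. PiZ libraries 1 and 4 and PiZ/Chop-/- library 2 were high and the other 5 were between 65.0 and 95.8 CPM (-0.73, interval -1.97 to 0.51, adjusted p = 0.612). Without PiZ libraries 1 and 4 together the sign of Cth turned (0.30). Cbs, the enzyme before it in the same pathway, ran from 311.8 to 1150 CPM in PiZ and from 575.4 to 1491 CPM in PiZ/Chop-/- (0.48, interval -0.38 to 1.35). PiZ library 4 was the second highest of its group for Cth and the lowest for Cbs.

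The mitochondrial form of phosphoenolpyruvate carboxykinase, Pck2, had 0, 2, 15 and 3 counts in PiZ and 7, 5, 10 and 14 in PiZ/Chop-/-, too few for the test (1.11 when low counts were not filtered, adjusted p = 0.530). The proline enzymes were low as well. Pycr1 had 33 counts over the PiZ and 32 over the PiZ/Chop-/- libraries. Aldh18a1, which makes the precursor of proline and ornithine, had 10 and 3.

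Of 6 secreted and membrane proteins 2 were tested and none passed. Among them Fgf21, a liver hormone of fasting and mitochondrial stress, was found in PiZ libraries only. It had 3, 0, 8 and 4 counts in PiZ and 0 in each PiZ/Chop-/- library. A floor of 3 counts over the PiZ/Chop-/- group is 0.359 CPM of the summed library totals. The pooled PiZ level of 1.71 CPM was 4.77 times this floor, which covers counting error at 0 counts only. The counting error of the PiZ counts is not in this ratio, so the ratio is no lower limit. Library 2 of PiZ had 0 as well, the gene was too low for the test, and when low counts were not filtered its adjusted p was 0.0879. The 250 bases before its RefSeq start (chr7:45615491-45615740, minus strand) are shown because the match lies within them, in capitals:
Fgf21: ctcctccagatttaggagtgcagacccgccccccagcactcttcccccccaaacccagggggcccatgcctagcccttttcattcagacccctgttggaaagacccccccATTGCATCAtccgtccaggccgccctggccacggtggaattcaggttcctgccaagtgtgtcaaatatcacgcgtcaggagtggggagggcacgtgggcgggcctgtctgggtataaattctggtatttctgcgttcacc

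Gdf15, a circulating stress hormone, did not pass. It stood at 219, 327, 579 and 290 CPM in PiZ and at 361.5, 314, 330 and 87.6 CPM in PiZ/Chop-/-. PiZ library 3 was highest and PiZ/Chop-/- library 4 lowest, while the other 6 lay between 219 and 361.5 CPM (-0.38, interval -1.38 to 0.63, adjusted p = 0.777). Vldlr, a lipoprotein receptor, ran from 2.43 to 6.15 and from 2.32 to 5.17 CPM (-0.31, interval -1.25 to 0.62). Wfs1, a membrane protein of the endoplasmic reticulum, had 5, 6, 10 and 42 counts in PiZ and 5, 7, 0 and 8 in PiZ/Chop-/-. Of its 63 PiZ counts, 42 came from library 4, and the fit over unfiltered genes gave -1.50 (SE 0.53, adjusted p = 0.140). Stc2 had 2 counts in PiZ and 0 in PiZ/Chop-/-, at or under the floor in both groups, and Car6 had 3 and 2.

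In PiZ/Chop-/- library 2, 9 of the 18 tested members were the highest of their group, and 1, Trib3, was the lowest. Among the 9 were Mthfd2, Psat1, Asns, Cth, Sesn2, Ppp1r15a and Nupr1. The same count over all genes tested was not made for this library, so the 9 cannot be called particular to the members. The median of the members' log2 CPM, each centred over the 8 libraries, was 0.20 in that library and -0.27 to -0.092 in the other 3 of its group. In PiZ it ran from 0.020 in library 2 to 0.36 in library 4. The message of Atf4 itself was 579 CPM in PiZ/Chop-/- library 2, against 134 to 197 CPM in the other 3 and 330 to 404 CPM in PiZ. Atf3 and Fos had 84 and 24 counts in that library and at most 5 and 1 in the others of its group, and summed neutrophil markers were 86.8 CPM there against 5.11 to 9.43 CPM. The part of these differences in the members' levels was not tested. Without that library, Atf4 passed (-1.10, adjusted p = 0.0143; -0.42, adjusted p = 0.730 with all 8), while the number of members past the threshold remained 2.

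**Figure D3:**
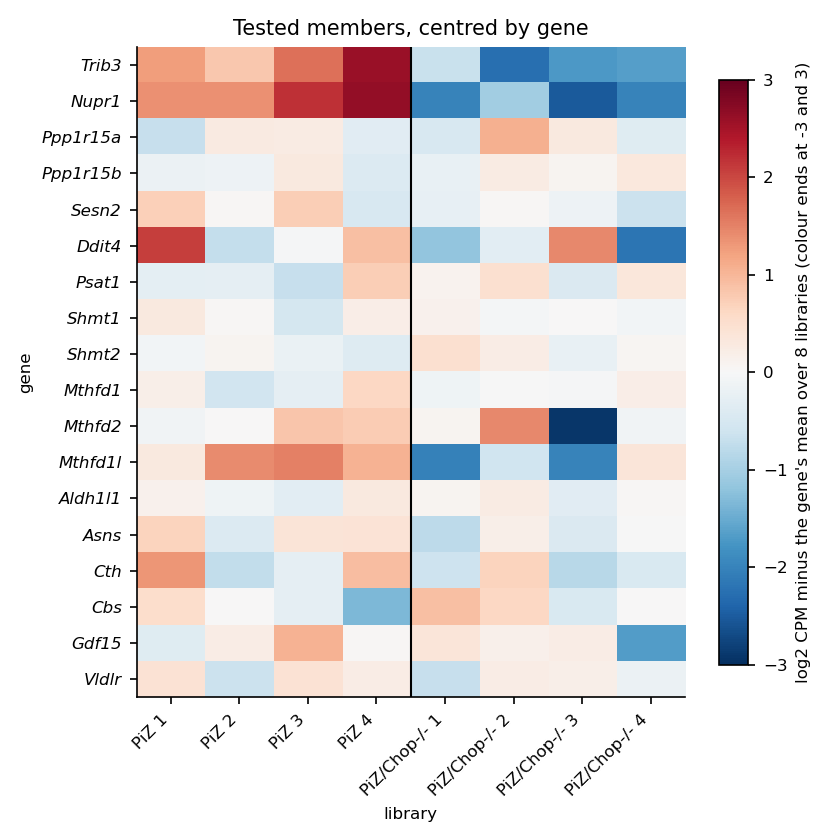
Log2 CPM of each tested member (rows) in each library (columns) minus the gene's mean over the 8 libraries, red above and blue below, with PiZ on the left. Trib3 and Nupr1 are red in all 4 PiZ and blue in all 4 PiZ/Chop-/- libraries, and PiZ/Chop-/- library 2 is the highest of its group in 9 of 18 rows.

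For the lists around the members, the counts of genes that passed are to be read beside the 1.03% of all genes tested. Of 12 genes for eIF2 kinases, eIF2 and its exchange factor eIF2B, 10 were tested, none passed and 8 were below 0 (median -0.25). The lowest p-values were those of Eif2b4, a subunit of eIF2B (-0.56, adjusted p = 0.259), and Eif2ak3, which encodes PERK (-0.75, adjusted p = 0.426). Of 20 bZIP factors 18 were tested, and Ddit3, the deleted gene, was the only one to pass (median -0.10). Hspa5, the chaperone BiP and a target of the parallel ATF6 branch, had -1.01 (adjusted p = 0.206), and passed without PiZ/Chop-/- library 2 (-1.50, adjusted p = 0.00686) and when low counts were not filtered (adjusted p = 0.000255).

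Of 16 amino acid transporters 9 were tested and none passed (median 0.067). The median leaves out the 7 that had too few counts for the test. Among these, Slc7a11 had 59 counts over the PiZ and 11 over the PiZ/Chop-/- libraries, and Slc1a5 had 28 and 8. No other of them had more counts in PiZ/Chop-/- than in PiZ, and Slc7a7 was nearly level (35 and 32). Slc3a2, the heavy chain that carries several exchangers to the membrane, had 82.4, 71.4, 98.4 and 119 CPM in PiZ and 41.3, 74.1, 56.6 and 38.7 CPM in PiZ/Chop-/- (-0.82, adjusted p = 0.132). It overlapped through PiZ/Chop-/- library 2 and passed without it (-1.03, adjusted p = 0.04) and when low counts were not filtered (-0.81, adjusted p = 0.0263). Slc38a2, a glutamine and alanine carrier, went the other way (0.79, adjusted p = 0.372) and passed when low counts were not filtered (adjusted p = 0.0227).

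All 20 cytosolic aminoacyl-tRNA synthetases were tested, 19 were below 0 and 1, Mars, passed (median -0.24). Mars (-3.60, adjusted p = 8.07e-07) overlaps the 3' end of Ddit3 on the opposite strand with its own 3' end, from 127296221 to 127296288 on chromosome 10. The strand setting of the counting is not given, so reads within these bases cannot be told apart, and their share in the counts of Mars was not measured. Of 38 other genes of folate, methionine, glycine and proline metabolism 34 were tested, none passed and 16 were below 0 (median 0.045). Gcsh, a carrier protein of the mitochondrial glycine cleavage system, had 24.6, 12.6, 19.6 and 30.4 CPM in PiZ and 124, 14.4, 67.5 and 107 CPM in PiZ/Chop-/-. It was high in 3 of the 4 libraries without CHOP and within the PiZ range in library 2 (1.85, adjusted p = 0.251). It passed without that library (2.19, adjusted p = 0.00128) and with DESeq2 (1.86, adjusted p = 0.0105). Gldc, the decarboxylase of the same system, had 0.78 (adjusted p = 0.251), and passed without PiZ libraries 1 and 4 together (1.31, adjusted p = 0.0378).

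**Figure D4:**
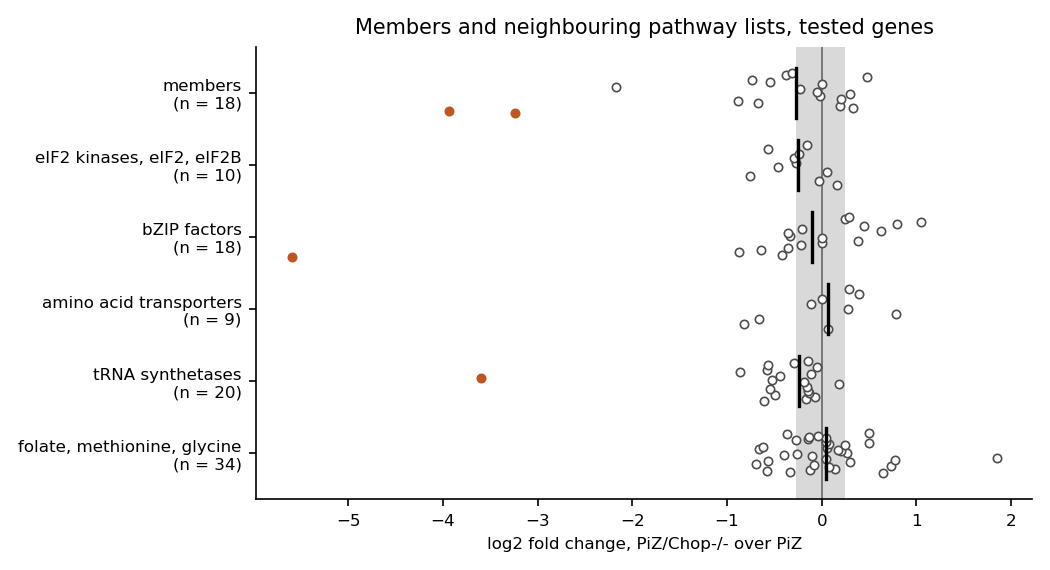
Log2 fold change (horizontal axis) of every tested gene among the members and in 5 neighbouring lists (points, filled where adjusted p is below 0.05), with each list's median as a black bar and the middle 50% of all 8669 tested genes in grey. The filled points are Nupr1 and Trib3 among the members, Ddit3 among the bZIP factors and Mars among the synthetases.

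The design sees large changes better than small ones. When counts of this comparison were simulated for 8669 genes, the test found 36% of the genes changed 2-fold and 91.6% of those changed 4-fold. The changed genes were drawn at random from all tested genes, so these shares are averages and do not hold for each member. Mthfd1l, 4.52-fold lower, did not pass (edgeR adjusted p = 0.103), and the interval of Ddit4 reached -3.15. The intervals above, not the missed threshold, say how far a member such as Asns may have moved.

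**Figure D5:**
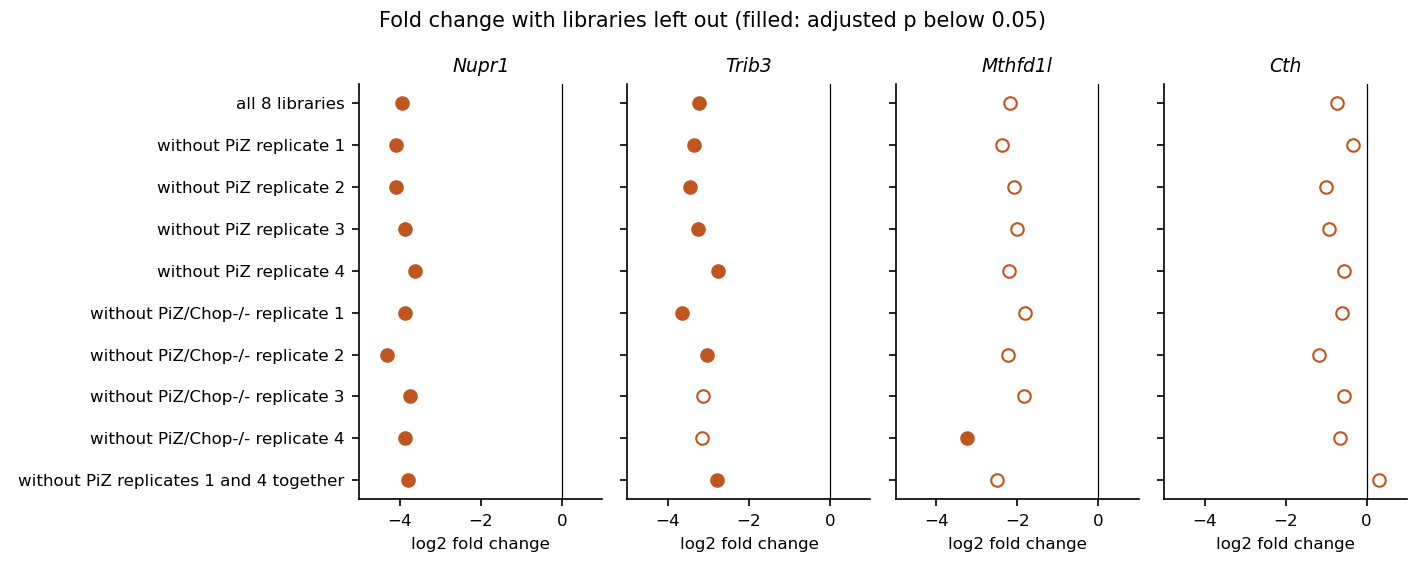
Log2 fold change of Nupr1, Trib3, Mthfd1l and Cth (horizontal axes) with all 8 libraries and with libraries left out (rows), filled where adjusted p is below 0.05. Nupr1 is filled in every row, Trib3 is open without PiZ/Chop-/- library 3 or 4, Mthfd1l is filled only without PiZ/Chop-/- library 4, and Cth crosses 0 without PiZ libraries 1 and 4.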

How the data were processed

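QuantSeq 3' mRNA libraries were made from liver RNA, per the labels' protocols. The values the authors deposited are raw counts for each gene, per the file headers. The submitters' processing notes name STAR, HTSeq and mm10 without versions. The sources used here do not give the annotation, the strand setting or the handling of multiply mapped and duplicate reads. IDs were matched to GENCODE M21 (52403 of 52551 rows), an annotation of mm10 that may not be the authors'. Total counts were 1650260 to 3064385 per library. The wild-type group of the design text was not analysed here.

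Counts of the 8 libraries were fitted with edgeR 4.0.16 (R 4.3.3): filterByExpr (minimum count 10, 8669 genes kept), TMM, robust glmQLFit, glmQLFTest of PiZ/Chop-/- against PiZ, Benjamini-Hochberg over all genes, threshold 0.05. SE is the log2 fold change divided by the square root of F, and 95% intervals use the fit's degrees of freedom. Alternatives were RLE, upper quartile or no scaling, DESeq2 1.42.0, limma-voom 3.58.1, no filter or a minimum of 5 CPM in 4 libraries, glmQLFit without the robust option, a replicate block, each library left out, and PiZ libraries 1 and 4 left out. The test was checked on simulated counts (5 runs, 200 changed genes each).

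All 30 members are accounted for. Ddit3, SERPINA1, Atf4 and Hspa5 were named whatever their outcome. Each neighbouring list gave up to 3 genes past the threshold, or else the 2 of lowest p. Members past the threshold, members whose groups do not overlap, serine synthesis enzymes and mitochondrial one-carbon enzymes get every library's value. Atf3, Fos, Slc7a11, Slc1a5 and Slc7a7 were named after their values were seen. Members and lists were chosen with earlier results of these data known. 1 of the marker lists is not reported here. Promoter sequences are RefSeq's, GRCm38.p6.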

Additional observations from a re-analysis of the deposited data

Results flagged for a closer look

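Among 36 groups of 4 libraries (18 tested members in each genotype), 1 held a library far from the other 3. Cth stood at 184.5 CPM in PiZ/Chop-/- library 2 and at 65.0 to 83.9 CPM in the other libraries of that group, a gap of 0.843 of the group's range, above Dixon's 95% limit for 4 values. Chance alone marks about 1 group in 20. PiZ libraries 1 and 4 were as high or higher, at 292 and 222 CPM.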

How the results depend on the processing

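Over 18 alternatives, Nupr1 kept its direction and its call in all 18 and Trib3 its direction in all 18 and its call in 16. Members past the threshold were 1 to 2 with single libraries left out, all of them lower, and their median log2 fold change ran from -0.44 to -0.11 there but was 0.0028 without PiZ libraries 1 and 4 together. Genes past the threshold numbered 89 (60 lower, 29 higher). They came to 209 with DESeq2 (114 lower, 95 higher) and 357 with no filter on low counts (182 lower, 175 higher), where more genes were tested, and genes higher came to 19 with library size only and 18 with limma-voom. With single libraries left out there were 46 to 169 genes, 32 to 102 lower and 12 to 67 higher. The cause of these shifts was not tested.

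Of the 18 tested members 11 kept their sign throughout. Without PiZ libraries 1 and 4 together, signs turned for Ppp1r15a (-0.010), Ddit4 (0.39), Shmt1 (0.23), Mthfd1 (0.44) and Cth (0.30). With limma-voom and with a replicate block they turned for Shmt1 (0.010 and 0.0045) and Mthfd1 (0.035 and 0.012), and with library size only for Aldh1l1 (-0.082). With single libraries left out, values ran from -0.10 to 0.53 for Ppp1r15a, -0.17 to 0.081 for Shmt1, -0.21 to 0.23 for Mthfd1, -1.02 to 0.18 for Mthfd2 and -0.091 to 0.13 for Aldh1l1. The cause was not tested.

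No pairing of the libraries by replicate number was seen over all tested genes. Deviations of same-numbered libraries correlated at 0.046, -0.051, 0.006 and 0.049, and not every library correlated best with its own number. Such correlations cannot exclude a pairing that touches few genes. A block on the replicate number gave 76 genes past the threshold, 2 of them members, and Gcsh passed there (1.62, adjusted p = 0.0268). At these depths 12 of 30 members had too few counts for the test.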
